A study of Mus musculus with 30 samples.

Results

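Ccr2, Ccr6, Ccr7, Cxcr3 and Cxcr4 are 5 chemokine receptor genes, described here in regulatory and effector CD4+ T cells. They were taken by name as every probe set annotated to 1 of these genes and to no other gene. Each gene had 1 probe set, so that they make up 5 of the 8251 genes with such a probe set on the MG-U74Av2 mouse array: 93397_at for Ccr2, 99899_at for Ccr6, 104443_at for Ccr7, 94173_at for Cxcr3 and 102794_at for Cxcr4. The 30 arrays measured RNA of sorted CD4+ T cells, and the value of a probe set is its deposited intensity, given here as log2.

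Every group, controls included, came from the NOD strain carrying the BDC2.5 TCR transgene, which gives most CD4+ T cells a receptor for 1 pancreatic islet antigen, so no group stands for a mouse without it. In pancreas set 1, mice received rat IgG, and CD4+CD25+CD69- regulatory cells (Treg, 3 arrays) were set against CD4+CD25lo/-CD69+/- effector cells (Teff, 5 arrays), with no age given. Pancreas set 2 held CD4+CD25+ Treg (3 arrays) and CD4+CD25- Teff (3 arrays) of 26-day-old mice given antibody against ICOS, a costimulatory receptor of T cells. Set 2 also held 2 arrays of CD4+CD25+CD69- Treg of IgG-treated mice, 1 aged 26 days and 1 aged 4 weeks. The third set held CD4+CD25+ and CD4+CD25- cells of 4-week-old mice from mesenteric nodes (5 and 3 arrays) and from peripheral nodes (3 and 3 arrays). The gates therefore differ: CD69 was used only in the IgG pancreas sorts, and the labels do not say whether the arrays of a group came from separate animals, so that p-values measure the spread between these arrays, which may be technical.

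Some labels and arrays went against their group. Every peripheral array carries a tissue entry naming the mesenteric node, and mesenteric CD25+ replicate 2 has a source name reading CD25-; the titles were followed. Il2ra, the gene of CD25, was 5.5 in that replicate, beside 5.34 to 6.24 in the other 4 mesenteric CD25+ arrays and 4.09 to 4.11 in mesenteric CD25- arrays. In anti-ICOS Treg replicate 3, Il2ra was 3.88, against 5.0 and 7.03 in the other 2 anti-ICOS Treg arrays and 3.68 to 3.82 in anti-ICOS Teff arrays. The library labelled anti-ICOS Treg replicate 3 thus had the CD25 transcript at about the level of the CD25- sort, and results that rest on it are given with and without it. IgG Treg replicate 3 of set 1 and IgG Treg replicate 2 of set 2 carry the same array number and correlated at r = 0.997 (0.988 at most for other pairs), so they were counted once wherever the sets were joined. For that array number the set 2 record gives an age of 26 days, and the set 1 record gives none. Median array intensities were 32.5 to 34.5 in set 1, 27.9 to 29.8 in set 2 and 25.3 to 27.1 in the node set.

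Chemokine receptors are seven-transmembrane proteins that couple to inhibitory G proteins and steer a cell along a gradient of chemokine. CCR7 reads CCL19 and CCL21 and brings naive T cells into lymph nodes. CXCR3 reads the interferon-induced chemokines CXCL9, CXCL10 and CXCL11 and CCR2 reads CCL2, and both are receptors of T cells that enter inflamed tissue, including islets under autoimmune attack. CCR6 reads CCL20 and is found on memory T cells, on part of the Treg and on B cells, mostly in relation to mucosal surfaces. CXCR4 reads CXCL12 and is present on most lymphocytes. The contrasts below set Treg against Teff, or CD25+ against CD25- cells, and each is called a Treg contrast.

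In the pancreas of IgG-treated mice, the receptors of inflamed and mucosal tissue were higher in Treg and the receptors of lymph node and of CXCL12 were lower. Ccr2 and Cxcr3 were 3.32-fold and 3.16-fold higher in Treg than in Teff, and Ccr6 was 1.78-fold higher. Ccr7 and Cxcr4 were 1.70-fold and 1.42-fold lower in Treg. All 5 passed limma's moderated test at a Benjamini-Hochberg adjusted p under 0.05 over all probe sets, where 6.69% of the 12422 probe sets passed (488 higher and 343 lower in Treg). The 5 genes were chosen with earlier results of these data known. Counts of receptors beside such shares, here and below, are therefore no test of the receptors as a set. As each array is a pool of sorted cells, fewer cells that express a gene and less RNA per cell cannot be told apart.

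Ccr2 had log2 intensities of 7.05, 6.69 and 6.46 in the 3 IgG Treg arrays, against 5.18, 5.31, 4.60, 4.82 and 5.11 in the 5 IgG Teff arrays. Every Treg array lay above every Teff array, and the difference was 1.73 on the log2 scale (SE 0.18, 95% CI 1.34 to 2.13, limma adjusted p = 0.000489). Cxcr3 had 8.48, 8.45 and 8.61 in IgG Treg, against 6.96, 6.85, 6.68, 7.03 and 6.75 in IgG Teff. The Cxcr3 groups lay far apart and did not overlap. The Cxcr3 difference was 1.66 (SE 0.10, 95% CI 1.44 to 1.88, limma adjusted p = 1.56e-05), which ranked 9 by p among all probe sets.

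Ccr6, the CCL20 receptor, had 7.73, 7.79 and 7.68 in IgG Treg, against 6.98, 7.03, 6.73, 6.89 and 6.87 in IgG Teff. Here too every Treg array stood above every Teff array. The Ccr6 difference was 0.83 (SE 0.09, 95% CI 0.63 to 1.04, limma adjusted p = 0.000701).

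Ccr7, the lymph node entry receptor, had 4.52, 4.69 and 4.64 in IgG Treg, against 5.33, 5.07, 5.40, 5.64 and 5.47 in IgG Teff. All Treg arrays lay below all Teff arrays, by 0.77 on average (difference -0.77, SE 0.12, 95% CI -1.04 to -0.50, limma adjusted p = 0.00513). Cxcr4 had 4.73, 4.92 and 4.90 in IgG Treg, against 5.47, 5.18, 5.62, 5.11 and 5.41 in IgG Teff. These groups did not overlap either, with a difference of -0.51 (SE 0.12, 95% CI -0.78 to -0.23, limma adjusted p = 0.0365). The Cxcr4 call was the least steady of the 5: it held in 2 of the 8 fits that left out 1 array, with adjusted p between 0.0265 and 0.0966. Both probe sets were near the middle of their arrays: Ccr7 lay above 38.4 to 41.9% of probe sets in IgG Treg and 49.4 to 61.3% in IgG Teff, and Cxcr4 above 42.8 to 46.8% in IgG Treg and 51.2 to 61.2% in IgG Teff. Ccr2 was likewise low in its comparison groups. It lay above 41.7 to 54.3% of probe sets in IgG Teff, 36 to 38.2% in mesenteric CD25- and 37.1 to 44% in peripheral CD25- cells. The values carry no detection call, so how far Ccr7, Cxcr4 and, in those groups, Ccr2 stand above background is unknown.

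The array numbers of the 3 IgG Treg and 5 IgG Teff arrays fall into 3 runs, each with 1 Treg array. Within the runs the Treg minus Teff difference was 1.80, 2.09 and 1.50 for Ccr2, 1.57, 1.77 and 1.72 for Cxcr3, and 0.72, 1.06 and 0.80 for Ccr6. It was -0.68, -0.72 and -0.91 for Ccr7 and -0.59, -0.70 and -0.36 for Cxcr4. As Treg and Teff arrays did not overlap for any of the 5 receptors, the direction within a run could not have differed. The log2 ratio of 3′ to 5′ actin signal, a sign of RNA integrity and amplification, averaged 3.75 in IgG Treg and 2.65 in IgG Teff (exact permutation test, two-sided p = 0.0357, adjusted p = 0.1 over 4 sort pairs). With that ratio as a covariate, Ccr2 and Cxcr3 stayed past the threshold, while Ccr6 (0.83, adjusted p = 0.0521), Ccr7 (-0.81, adjusted p = 0.155) and Cxcr4 (-0.66, adjusted p = 0.239) did not.

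**Figure D1:**
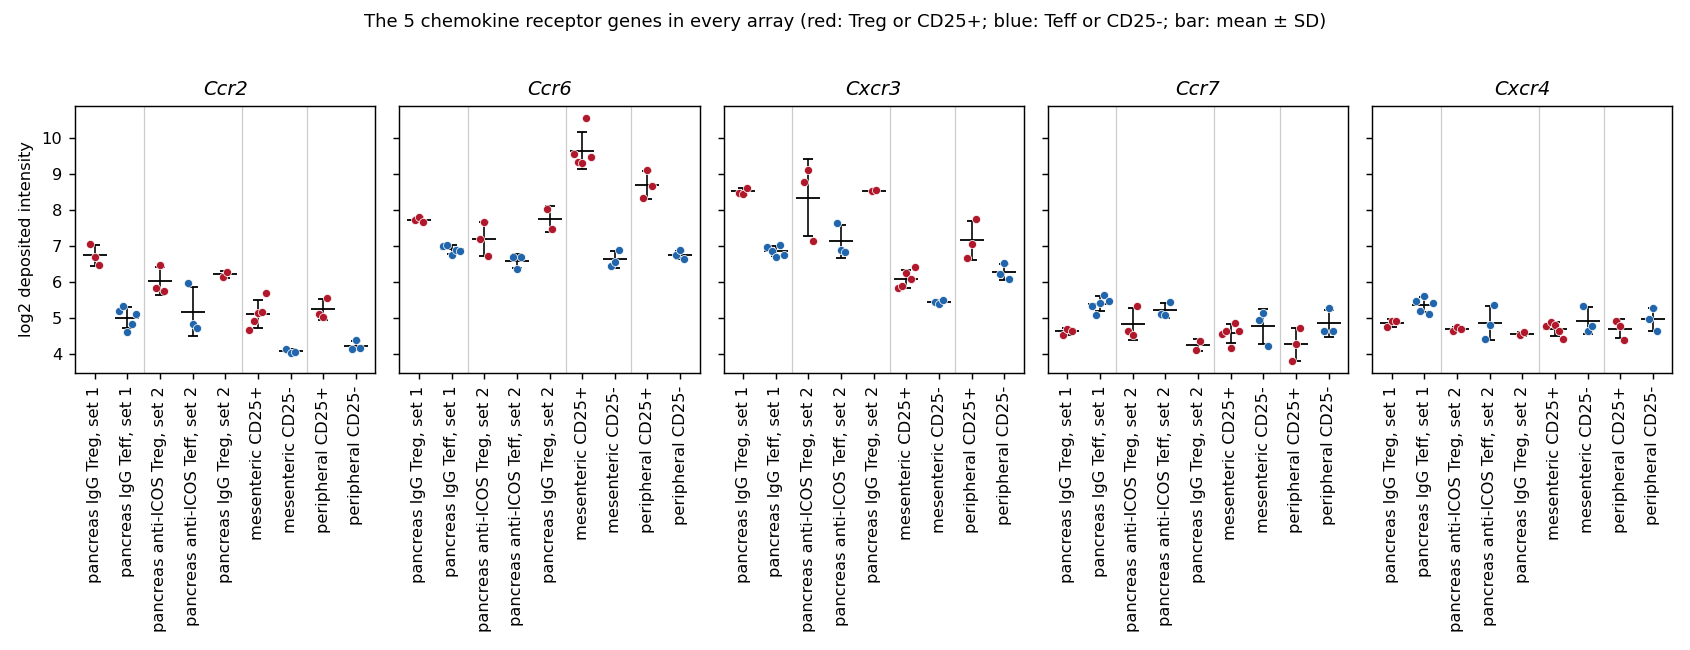
The log2 deposited intensity of each receptor is plotted for every array (points; red, Treg or CD25+; blue, Teff or CD25-) by group, with the group mean ± SD (bars); each set of records is on its own scale. Ccr6 reaches 9.31 to 10.56 in mesenteric CD25+ cells, and Cxcr3 reaches 8.45 to 8.61 in IgG Treg of pancreas set 1.

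Ccr2, Ccr6 and Cxcr3 passed as higher in the Treg or CD25+ cells of all 3 tissues, though some of these calls were lost in other fits, as given below. For that reason their promoter windows are shown, each from 250 bases before to 50 bases after a transcription start. The sequences are RefSeq's on build GRCm38.p6, on the strand of the gene: chr9:124101933-124102232 (plus strand) for Ccr2, chr17:8235793-8236092 and chr17:8242276-8242575 (plus strand) for the 2 annotated starts of Ccr6, and chrX:101734098-101734397 (minus strand) for Cxcr3. Capitals mark exact matches, on either strand, to 6 motifs. The RUNX motif was searched as TGTGGT and the T-box motif as GGTGTGA. The ROR motif was searched as AGGTCA and the motif of KLF and SP factors as CCGCCC. The TATA motif was searched as TATAAA and the GATA motif as AGATAA.
Ccr2: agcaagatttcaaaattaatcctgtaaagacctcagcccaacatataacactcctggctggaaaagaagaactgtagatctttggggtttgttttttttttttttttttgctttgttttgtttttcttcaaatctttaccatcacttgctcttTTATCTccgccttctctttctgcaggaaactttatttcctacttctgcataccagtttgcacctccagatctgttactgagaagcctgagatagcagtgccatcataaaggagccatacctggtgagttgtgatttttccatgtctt
Ccr6 upstream start: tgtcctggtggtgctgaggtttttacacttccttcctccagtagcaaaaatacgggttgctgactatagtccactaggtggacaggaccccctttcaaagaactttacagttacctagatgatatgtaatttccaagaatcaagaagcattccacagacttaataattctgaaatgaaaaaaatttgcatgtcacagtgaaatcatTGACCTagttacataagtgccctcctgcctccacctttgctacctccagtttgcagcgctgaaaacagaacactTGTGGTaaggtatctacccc
Ccr6 downstream start: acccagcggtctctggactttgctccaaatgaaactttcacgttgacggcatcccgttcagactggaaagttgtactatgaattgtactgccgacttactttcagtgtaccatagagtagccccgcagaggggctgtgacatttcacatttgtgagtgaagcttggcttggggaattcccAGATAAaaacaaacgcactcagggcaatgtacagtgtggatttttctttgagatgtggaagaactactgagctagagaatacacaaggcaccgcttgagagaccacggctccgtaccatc
Cxcr3: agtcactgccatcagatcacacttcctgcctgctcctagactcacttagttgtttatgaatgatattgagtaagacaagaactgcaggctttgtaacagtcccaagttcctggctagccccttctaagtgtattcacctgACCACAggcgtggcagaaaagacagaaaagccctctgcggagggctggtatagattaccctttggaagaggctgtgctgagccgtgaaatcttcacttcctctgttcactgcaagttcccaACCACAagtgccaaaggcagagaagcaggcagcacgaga
The upstream Ccr6 window held 1 ROR and 1 RUNX match, 44 bases before and 30 bases after the start, and the downstream window held 1 GATA match. The Cxcr3 window held 2 RUNX matches, and the Ccr2 window held 1 GATA match. The T-box letters were in none of these 4 windows. Among all 32851 windows of this length, 16.8% held the RUNX letters, 16.3% the ROR letters and 11.2% the GATA letters, and 3.98%, 35.7% and 13.6% held those of T-box, KLF and SP, and TATA, so a match is a description of the sequence and marks no bound site. Cxcr4 also has a window in that table, with 3 KLF and SP matches and 2 overlapping TATA matches, and Ccr7 is named only.

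In the mesenteric nodes, which drain the gut, the leading receptor was Ccr6. Ccr6 was 8.13-fold higher in CD25+ than in CD25- cells, Ccr2 was 2.06-fold higher and Cxcr3 1.57-fold higher. These 3 receptors passed the threshold, at a background of 12.2% of probe sets in this comparison, and Ccr7 and Cxcr4 did not.

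Ccr6 in mesenteric CD25+ cells had 9.34, 9.55, 9.31, 10.56 and 9.47 in replicates 1 to 5, against 6.43, 6.55 and 6.88 in mesenteric CD25- cells. The gap between the groups was wider than either group's range, and replicate 4 stood above the other 4 CD25+ arrays. The difference was 3.02 (SE 0.25, 95% CI 2.49 to 3.56, limma adjusted p = 9.98e-06), and it was 2.79 to 3.15 over the 14 fits that left out 1 node array. Ccr2 had 4.91, 4.64, 5.14, 5.16 and 5.68 in mesenteric CD25+ cells, against 4.12, 4.01 and 4.05 in mesenteric CD25- cells. The groups did not overlap, and the difference was 1.04 (SE 0.19, 95% CI 0.64 to 1.44, limma adjusted p = 0.00276).

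Cxcr3 had 5.87, 5.83, 6.23, 6.07 and 6.40 in mesenteric CD25+ cells, against 5.43, 5.37 and 5.49 in mesenteric CD25- cells. The difference of 0.65 (SE 0.20, 95% CI 0.22 to 1.08) lay at the threshold (limma adjusted p = 0.0497): it was past it in 4 of the 14 leave-out fits, with adjusted p between 0.0101 and 0.165, and with the replicate block it was 0.55 (adjusted p = 0.17). With the actin ratio as a covariate it was 0.61 (adjusted p = 0.14), after quantile normalization 0.61 (adjusted p = 0.053) and with an offset of 16 added to the intensity 0.50 (adjusted p = 0.103). The mesenteric Cxcr3 groups did not overlap, and the call was lost in these fits. Ccr7 ranged from 4.14 to 4.84 in mesenteric CD25+ cells and from 4.21 to 5.13 in mesenteric CD25- cells (difference -0.20, 95% CI -0.72 to 0.33, limma adjusted p = 0.708). Cxcr4 ranged from 4.39 to 4.87 in mesenteric CD25+ cells and from 4.62 to 5.33 in mesenteric CD25- cells (difference -0.22, 95% CI -0.61 to 0.18, limma adjusted p = 0.543). The Cxcr4 interval takes in 0 and also the -0.51 measured in the pancreas.

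In the peripheral nodes the same 3 receptors passed the threshold, at a background of 7.69% of probe sets. Ccr6 had 8.33, 9.10 and 8.68 in peripheral CD25+ cells, against 6.75, 6.87 and 6.64 in peripheral CD25- cells. That is a 3.86-fold higher level without overlap (difference 1.95, SE 0.28, 95% CI 1.35 to 2.55, limma adjusted p = 0.000951). Ccr2 had 5.10, 5.02 and 5.56 in peripheral CD25+ cells, against 4.13, 4.38 and 4.16 in peripheral CD25- cells (difference 1.00, SE 0.21, 95% CI 0.56 to 1.45, limma adjusted p = 0.00881). Cxcr3 had 6.66, 7.05 and 7.74 in peripheral CD25+ cells, against 6.21, 6.51 and 6.07 in peripheral CD25- cells. No Cxcr3 value of a CD25+ array fell among the CD25- arrays, though the CD25+ arrays spread over more than a log2 unit (difference 0.89, SE 0.22, 95% CI 0.41 to 1.37, limma adjusted p = 0.0259), and the call held in 10 of 14 leave-out fits.

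Ccr7 ranged from 3.79 to 4.71 in peripheral CD25+ cells and from 4.62 to 5.27 in peripheral CD25- cells, with a difference of -0.58 (95% CI -1.17 to 0.001, limma adjusted p = 0.241). Cxcr4 ranged from 4.39 to 4.90 in peripheral CD25+ cells and from 4.63 to 5.27 in peripheral CD25- cells, with a difference of -0.27 (95% CI -0.71 to 0.17, limma adjusted p = 0.506). Neither receptor passed the threshold in either node, and both differences were negative in both nodes. The node arrays fall into 2 runs of array numbers. Within them the Ccr6 difference was 2.95 and 2.90 in mesenteric nodes and 2.02 and 1.81 in peripheral nodes, that of Ccr2 0.71 and 1.28 and then 0.92 and 1.17, and that of Cxcr3 0.45 and 0.74 and then 0.72 and 1.23. The values of these 3 receptors did not overlap between sorts in either node, so their direction within a run could not have differed. Ccr7 had -0.44 and 0.32 in mesenteric nodes and Cxcr4 0.03 and -0.88 in peripheral nodes. The actin ratio averaged 2.85 in mesenteric CD25+ and 2.63 in mesenteric CD25- arrays (exact permutation p = 0.0714), and 3.02 in peripheral CD25+ and 2.54 in peripheral CD25- arrays (exact permutation p = 0.1, the smallest that 3 against 3 arrays allow). With the ratio as a covariate, Ccr6 alone of the peripheral calls stayed, and Ccr2 was 0.71 (adjusted p = 0.271) and Cxcr3 0.80 (adjusted p = 0.289).

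Markers of other cells were set beside Ccr6, since B cells also carry CCR6. Of 11 measured B cell genes, Cd79b (0.69), Blk (0.58) and Ighm (0.74) rose in pancreatic IgG Treg, and Cd79b (1.07) and Blk (1.59) rose in mesenteric CD25+ cells, while by limma 0 of 11 passed in the peripheral nodes (1 at an unadjusted p under 0.05). The summed linear intensity of the 11 genes was 782 to 954 in IgG Treg and 554 to 634 in IgG Teff, 639 to 772 in mesenteric CD25+ and 554 to 623 in mesenteric CD25- cells, and 509 to 992 in peripheral CD25+ and 486 to 808 in peripheral CD25- cells. Arrays give no values at 0. Of the 11 genes, 5 in IgG Treg and 7 in IgG Teff lay below the median of all probe sets, as did 4 in CD25+ and 5 in CD25- cells of either node. The list's median difference was 0.15, 0.06 and 0.05 in the pancreas, mesenteric and peripheral nodes, against 0.03, 0.04 and 0.05 over all probe sets. Of all probe sets, 6.69%, 12.2% and 7.69% passed in these contrasts. The part of B cell RNA in the Ccr6 levels was not tested. Of 16 macrophage and dendritic cell genes, which would include carriers of CCR2, 0 passed in the pancreas (1 unadjusted), Ctss fell by 0.52 in mesenteric CD25+ cells and 0 passed in the peripheral nodes (2 unadjusted). Their summed intensity was 1640 to 2090 in IgG Treg and 1780 to 2030 in IgG Teff, 1300 to 1630 in mesenteric CD25+ and 1800 to 1940 in mesenteric CD25- cells, and 1250 to 1880 in peripheral CD25+ and 1560 to 1620 in peripheral CD25- cells.

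**Figure D2:**
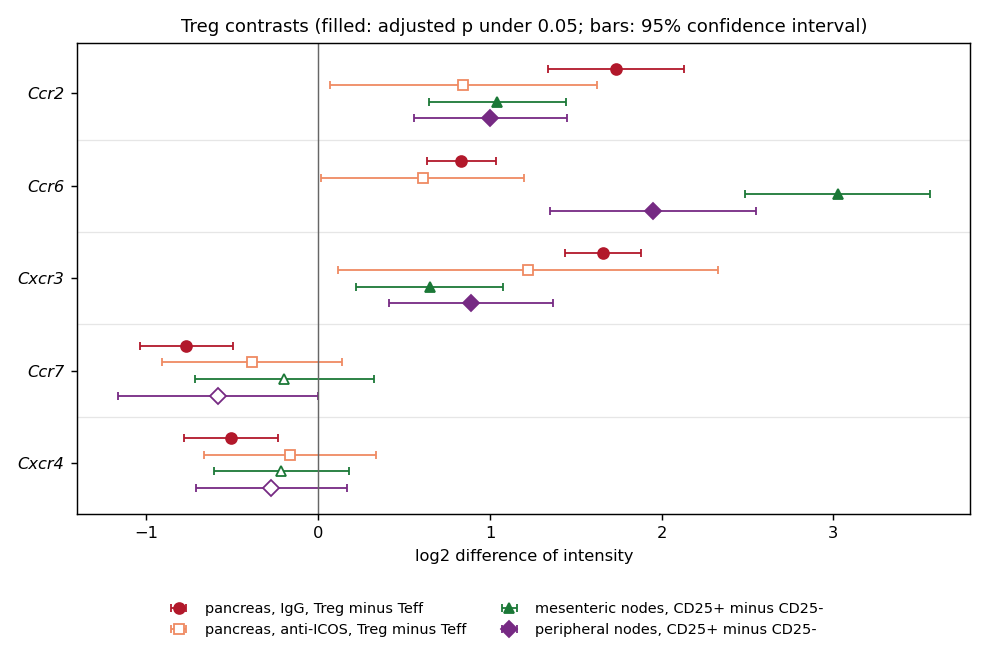
The log2 difference of each receptor (points, with bars for its 95% confidence interval) is drawn for the 4 Treg contrasts; filled points passed an adjusted p of 0.05. Ccr6 is at 3.02 in mesenteric nodes and 0.83 in the pancreas of IgG-treated mice, and Ccr7 and Cxcr4 lie below 0 in every contrast.

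Under anti-ICOS antibody, the Treg minus Teff difference of each receptor had the same sign as under IgG, but none passed. The background was 0% of probe sets, with 209 of 12422 at an unadjusted p under 0.05. Without anti-ICOS Treg replicate 3, 12 probe sets passed the threshold and 711 had an unadjusted p under 0.05. Cxcr3 had 8.79, 9.11 and 7.12 in anti-ICOS Treg, against 7.65, 6.88 and 6.84 in anti-ICOS Teff. The lowest Treg array is replicate 3, the library with low Il2ra, and it fell within the Teff range. The Cxcr3 difference was 1.22 with it (95% CI 0.11 to 2.33, limma adjusted p = 1) and 1.83 without it (adjusted p = 0.105).

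Ccr2 had 5.83, 6.46 and 5.74 in anti-ICOS Treg, against 5.96, 4.84 and 4.71 in anti-ICOS Teff. Here a Teff array, replicate 1, lay among the Treg arrays, and the difference was 0.84 (95% CI 0.07 to 1.62, limma adjusted p = 1), or 0.98 without Treg replicate 3 (adjusted p = 0.82). Ccr6 had 7.18, 7.66 and 6.70 in anti-ICOS Treg, against 6.68, 6.35 and 6.68 in anti-ICOS Teff, a difference of 0.61 (95% CI 0.02 to 1.20, limma adjusted p = 1), or 0.85 without Treg replicate 3 (adjusted p = 0.44). The Ccr6 groups did not overlap, with replicate 3 the lowest of the Treg arrays and next to the Teff arrays. Ccr7 had 4.62, 4.52 and 5.32 in anti-ICOS Treg, against 5.10, 5.06 and 5.44 in anti-ICOS Teff, a difference of -0.39 with replicate 3 and -0.64 without it (limma adjusted p = 1 and 0.457). Cxcr4 ranged from 4.64 to 4.73 in anti-ICOS Treg and from 4.41 to 5.34 in anti-ICOS Teff, a difference of -0.16 (limma adjusted p = 1). By limma, 3 of the 5 receptors (Ccr2, Ccr6 and Cxcr3) lay under an unadjusted p of 0.05. In the array runs that hold both sorts, the Cxcr3 difference was 1.53 and 2.28, that of Ccr2 0.43 and 1.75 and that of Ccr6 0.67 and 0.97; the third run held anti-ICOS Treg replicate 3 and no anti-ICOS Teff array.

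Set directly against IgG, anti-ICOS treatment gave no receptor past the threshold in Treg or in Teff. Treg were compared within set 2, where 0% of probe sets passed (425 unadjusted). The largest differences, anti-ICOS minus IgG, were 0.58 for Ccr7 (95% CI -0.004 to 1.17, limma adjusted p = 0.893) and -0.57 for Ccr6 (95% CI -1.23 to 0.09, limma adjusted p = 0.893). Without Treg replicate 3 they were 0.33 and -0.33. Cxcr3 was -0.20 (95% CI -1.43 to 1.04, limma adjusted p = 0.944) with replicate 3 and 0.41 without it, so its sign rests on that library. The sort gate differed with treatment, as only the IgG Treg were sorted as CD69-. Ages also differed, since 1 of the 2 IgG Treg arrays, replicate 1, came from 4-week-old mice. That array also stood apart in RNA of other cells. Lyz2, the lysozyme of macrophages and granulocytes, was 2.73 to 3.26 in anti-ICOS Treg, against 9.12 in IgG Treg replicate 1 and 3.37 in replicate 2. The summed intensity of 3 erythroid genes was 118 to 2440 in anti-ICOS Treg, against 10200 and 2940 in IgG Treg replicates 1 and 2, and that of the 16 macrophage and dendritic cell genes was 1550 to 1990, against 2420 and 1730. Without IgG Treg replicate 1, Ccr6 was -0.30, Ccr7 0.46 and Ccr2 -0.27. With all arrays Ccr2 was -0.19, and without anti-ICOS Treg replicate 3 it was -0.06. The part of other cells in these differences was not tested.

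Teff were compared across the 2 pancreas sets after joint normalization of 15 arrays. Treatment, sort gate (CD25lo/-CD69+/- under IgG, CD25- under anti-ICOS) and set cannot be told apart there. In Teff, 0% of probe sets passed (505 unadjusted), and the receptors ranged from -0.30 for Cxcr4 (limma adjusted p = 0.999) to 0.39 for Ccr2 (limma adjusted p = 0.999). The change of the Treg contrast with treatment, tested as an interaction in the same joint fit, passed for 0% of probe sets (328 unadjusted). Ccr2 had the widest such change, -0.93 (95% CI -1.73 to -0.14, unadjusted p = 0.0244, limma adjusted p = 0.999), and Cxcr3 had -0.65 (95% CI -1.69 to 0.40, limma adjusted p = 0.999). Without anti-ICOS Treg replicate 3 the Cxcr3 value was -0.05 and the Ccr2 value -0.80 (limma adjusted p = 1 for both), so the Cxcr3 change rests on that library.

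The Treg contrasts of the 3 tissues were then compared directly. Ccr6 differed most: its contrast was smaller in the pancreas than in mesenteric nodes by 2.14 (difference of differences -2.14, SE 0.29, 95% CI -2.75 to -1.53, limma adjusted p = 0.00122). Cxcr3 went the other way, with a contrast larger by 1.14 in the pancreas (SE 0.23, 95% CI 0.67 to 1.62, limma adjusted p = 0.0153). Both passed at a background of 1.34% of probe sets, and both held in all 22 fits that left out 1 array, where Ccr6 ran from -2.26 to -1.93 and Cxcr3 from 1.08 to 1.23. With the actin ratio as a covariate, Cxcr3 was 1.10 (adjusted p = 0.111) and no longer passed, and Ccr6 stayed past the threshold.

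Ccr2 had a contrast larger by 0.73 in the pancreas than in mesenteric nodes (95% CI 0.15 to 1.30, limma adjusted p = 0.24). Ccr7 (-0.51, 95% CI -1.19 to 0.17) and Cxcr4 (-0.25, 95% CI -0.75 to 0.25) did not pass either (limma adjusted p = 0.569 and 0.743). So the fall of Ccr7 in pancreatic Treg, which passed there and not in the nodes, was not shown to differ between tissues. These differences come from 22 arrays normalized together; the pancreas sort used CD69 and the node sort did not, so tissue, gate and set of records cannot be told apart.

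Against peripheral nodes no receptor passed, at a background of 0.419% of probe sets. The pancreas contrast minus the peripheral contrast was -1.11 for Ccr6 (SE 0.31, 95% CI -1.76 to -0.46, limma adjusted p = 0.126), 0.82 for Cxcr3 (SE 0.24, 95% CI 0.31 to 1.33, limma adjusted p = 0.158) and 0.75 for Ccr2 (SE 0.29, 95% CI 0.14 to 1.35, limma adjusted p = 0.351). Their directions matched those against the mesenteric nodes, and both comparisons share the pancreas arrays. Each of Ccr6 and Cxcr3 passed in 1 of 22 leave-out fits. For Cxcr3 it was the fit without peripheral CD25+ replicate 3 (limma adjusted p = 0.0177). For Ccr6 it was the fit without mesenteric CD25+ replicate 4 (limma adjusted p = 0.0242). That array lies outside this comparison and enters only through the joint normalization and the shared estimate of spread.

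Between the 2 kinds of node, the Ccr6 contrast was larger in mesenteric nodes by 1.08 (SE 0.38, 95% CI 0.27 to 1.88, unadjusted p = 0.0125, limma adjusted p = 1), at a background of 0.00805% of probe sets, which is 1 probe set. In CD25+ cells alone, Ccr6 was 0.94 higher in mesenteric than in peripheral nodes (SE 0.25, 95% CI 0.41 to 1.48, limma adjusted p = 0.566) and Cxcr3 was 1.07 lower (difference -1.07, SE 0.20, 95% CI -1.50 to -0.64, limma adjusted p = 0.082). The background of that comparison was 0.0725%, and neither receptor passed. The mesenteric and peripheral arrays did not overlap for either. The share of all probe sets without overlap is not given here, so a lack of overlap between nodes is a description only. In CD25- cells Cxcr3 was also lower in mesenteric nodes, again without overlap (difference -0.83, SE 0.22, 95% CI -1.31 to -0.35, limma adjusted p = 0.281, background 0.451%), while Ccr6 differed by -0.13 (95% CI -0.73 to 0.47, limma adjusted p = 1). With the run of array numbers as a block, the Cxcr3 difference passed in CD25+ (-1.19, adjusted p = 0.00456) and in CD25- cells (-0.83, adjusted p = 0.0259). It also passed in CD25+ cells without peripheral CD25+ replicate 1 (-1.32, adjusted p = 0.0296) and in CD25- cells without peripheral CD25+ replicate 3 (adjusted p = 0.0372). The latter array lies outside the CD25- comparison and enters only through the shared estimate of spread.

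**Figure D3:**
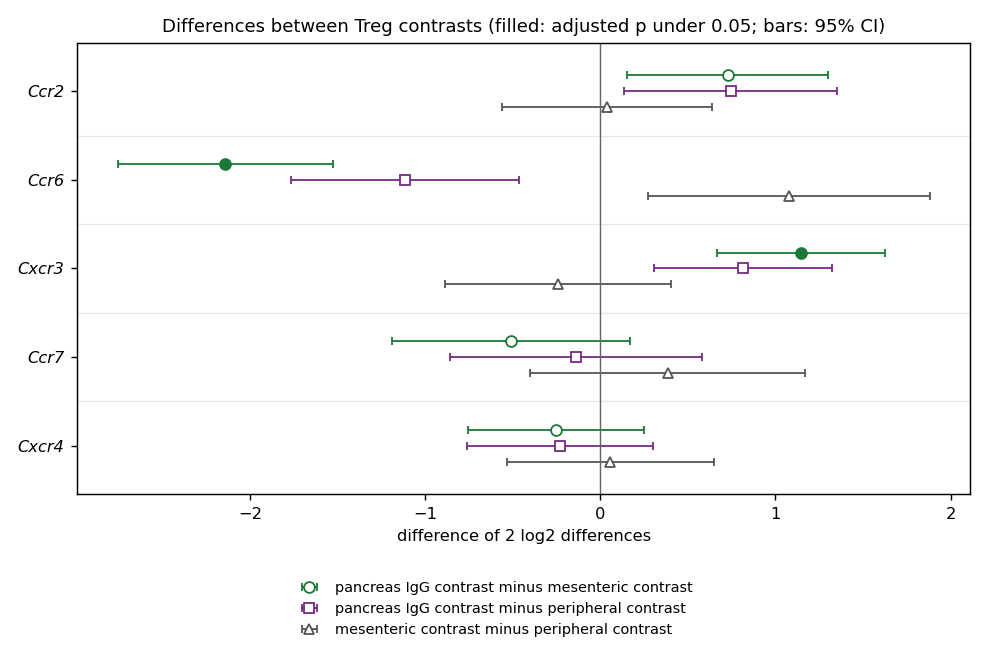
Each point is the difference between 2 Treg contrasts on the log2 scale, with its 95% confidence interval (bar); filled points passed an adjusted p of 0.05. The 2 filled points are Ccr6 at -2.14 and Cxcr3 at 1.14, both for pancreas minus mesenteric nodes.

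The levels behind these contrasts were ordered over 29 arrays normalized together, with the repeated array number averaged. Ccr6 was highest in mesenteric CD25+ cells (9.80 ± 0.48, SD, n = 5), then peripheral CD25+ cells (8.87 ± 0.40, n = 3), then pancreatic IgG Treg (7.74 ± 0.38, n = 4), and none of these 3 overlapped its neighbour above. The anti-ICOS Treg followed (7.05 ± 0.43, n = 3), overlapping the IgG Treg and the cells below. Without replicate 3, the library with low Il2ra, the other 2 anti-ICOS Treg arrays had 7.18 and 7.40, above every Teff or CD25- array (7.00 at most), so the overlap below rests on that library. All 4 Teff or CD25- groups lay between 6.46 and 6.87 on average, each overlapping its neighbour. The spread of Ccr6 means was thus wide among Treg and CD25+ groups and narrow among Teff and CD25- groups.

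Cxcr3 had another order. The pancreatic IgG Treg (8.50 ± 0.21, n = 4) and anti-ICOS Treg (8.20 ± 1.06, n = 3) were highest, and which of the 2 came first rests on anti-ICOS Treg replicate 3: the other 2 anti-ICOS Treg arrays had 8.78 and 8.85 (mean 8.82). Next came peripheral CD25+ cells (7.33 ± 0.48), anti-ICOS Teff (7.04 ± 0.57), IgG Teff (6.66 ± 0.15), peripheral CD25- cells (6.40 ± 0.20), mesenteric CD25+ cells (6.22 ± 0.25) and mesenteric CD25- cells (5.61 ± 0.03). Neighbours overlapped except at the bottom, where mesenteric CD25- cells lay below all other groups. Without anti-ICOS Treg replicate 3, both pancreatic Treg groups also lay above all other groups. Within every pair of sorts the Treg or CD25+ mean was above its counterpart, and mesenteric CD25+ cells had a lower Cxcr3 mean than peripheral CD25- cells. Ccr2 was highest in IgG Treg (6.45 ± 0.34) and lowest in mesenteric CD25- cells (4.18 ± 0.06), and each group overlapped its neighbours, except that the anti-ICOS Treg without replicate 3 (5.78 and 6.30) lay above the peripheral CD25+ cells (5.69 at most). Ccr7 means ran from 4.30 to 5.18 and Cxcr4 means from 4.56 to 5.14, with the IgG Treg lowest for both and every neighbour overlapping.

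Pancreatic IgG Treg were set against the mean of the mesenteric and peripheral CD25+ groups, and 24.1% of probe sets passed the threshold. Tissue and set of records coincide in this comparison. Cxcr3 (1.63, SE 0.15, limma adjusted p = 1.1e-06) and Ccr2 (1.24, SE 0.18, limma adjusted p = 0.00011) were higher in the pancreas and Ccr6 was lower (-1.74, SE 0.19, limma adjusted p = 7.77e-06). Pancreatic Teff, set likewise against the mean of the CD25- groups of both nodes, had 27% of probe sets past the threshold. Of the receptors, Cxcr3 (0.65, SE 0.13, limma adjusted p = 0.00176) and Ccr2 (0.51, SE 0.16, limma adjusted p = 0.0257) passed. The Ccr2 call in Teff was lost in 4 of 22 leave-out fits, those without IgG Teff replicate 1, 2 or 5 or peripheral CD25- replicate 1. Against these means, Cxcr3 was higher in pancreatic cells of both sorts, and Ccr6 was lower in pancreatic Treg with a Teff difference of -0.11 (95% CI -0.47 to 0.25, limma adjusted p = 0.681). The Cxcr3 difference in Teff lay mostly against the mesenteric nodes. With the 22 arrays normalized together, IgG Teff averaged 6.633 (6.411 to 6.789) and mesenteric CD25- cells 5.594. Peripheral CD25- cells averaged 6.375 (6.175 to 6.57) and overlapped IgG Teff. Exocrine pancreas genes, a sign of tissue RNA in the sort, were higher in pancreas for 4 of 6 measured genes in both comparisons, and their part in these levels was not tested. Of the 11 B cell genes, 2 were higher and 5 lower in pancreatic Treg than in node CD25+ cells, and their part in the lower Ccr6 was not tested either.

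**Figure D4:**
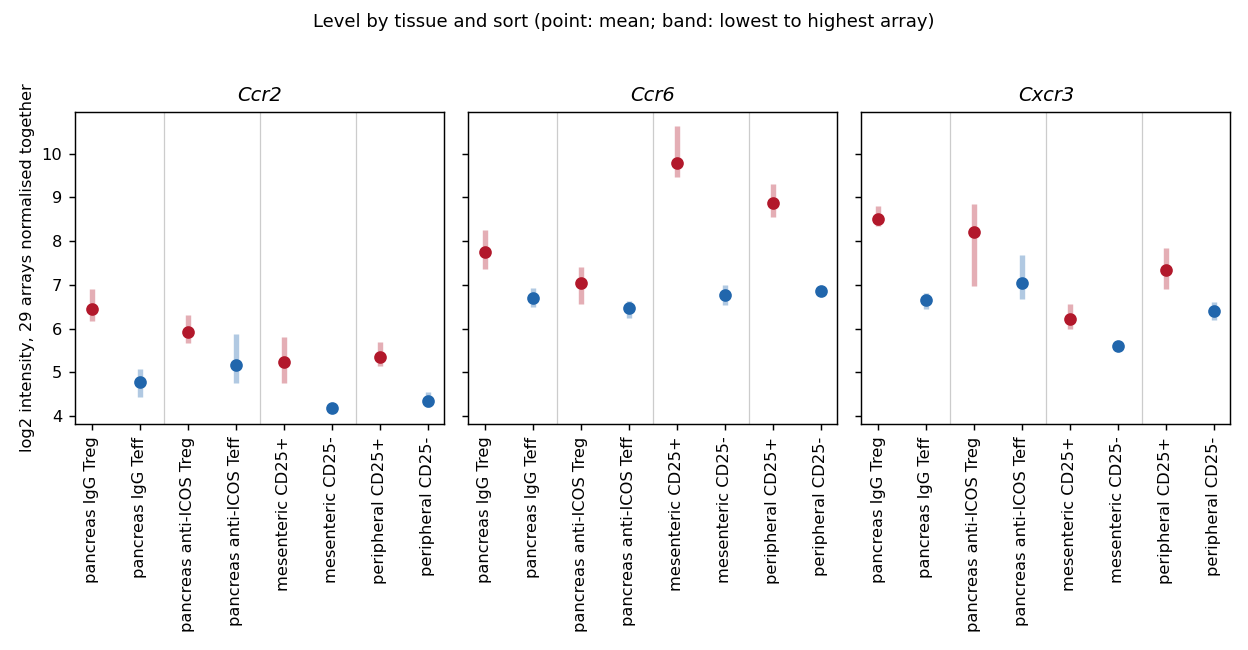
The mean log2 intensity (points) and the lowest to highest array (bands) of Ccr2, Ccr6 and Cxcr3 are shown by tissue and sort after normalizing 29 arrays together. Ccr6 stands highest in mesenteric CD25+ cells (9.80), and Cxcr3 in the pancreatic Treg (8.50 under IgG; under anti-ICOS 8.20 with replicate 3 and 8.82 without it).

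Other chemokine receptors on the array were counted next. Of 18 listed, 14 had a probe set of their own. Ccrl2, an atypical receptor that binds chemerin and does not signal for migration, rose in the IgG Treg by 0.48 (5.99 in Treg and 5.51 in Teff, limma adjusted p = 0.0196), in mesenteric CD25+ cells by 0.56 (5.77 in CD25+ and 5.21 in CD25- cells, limma adjusted p = 0.00563) and in peripheral CD25+ cells by 0.54 (5.74 in CD25+ and 5.20 in CD25- cells, limma adjusted p = 0.0172). The other 13 did not pass in any of these 3 contrasts. Ccr4, Ccr8 and Cxcr5 are named after their values were seen. Ccr4, a receptor known from skin-homing and regulatory T cells, differed by 0.03, 0.21 and 0.12 in pancreas, mesenteric and peripheral contrasts, and Ccr8, also known from tissue Treg, by 0.13, 0.11 and 0.19. Cxcr5, the receptor of follicular helper cells and B cells, differed by -0.18, 0.45 and -0.07. The list's median difference was 0.02, 0.08 and 0.09 in the 3 contrasts, against 0.03, 0.04 and 0.05 over all probe sets, of which 6.69%, 12.2% and 7.69% passed.

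**Figure D5:**
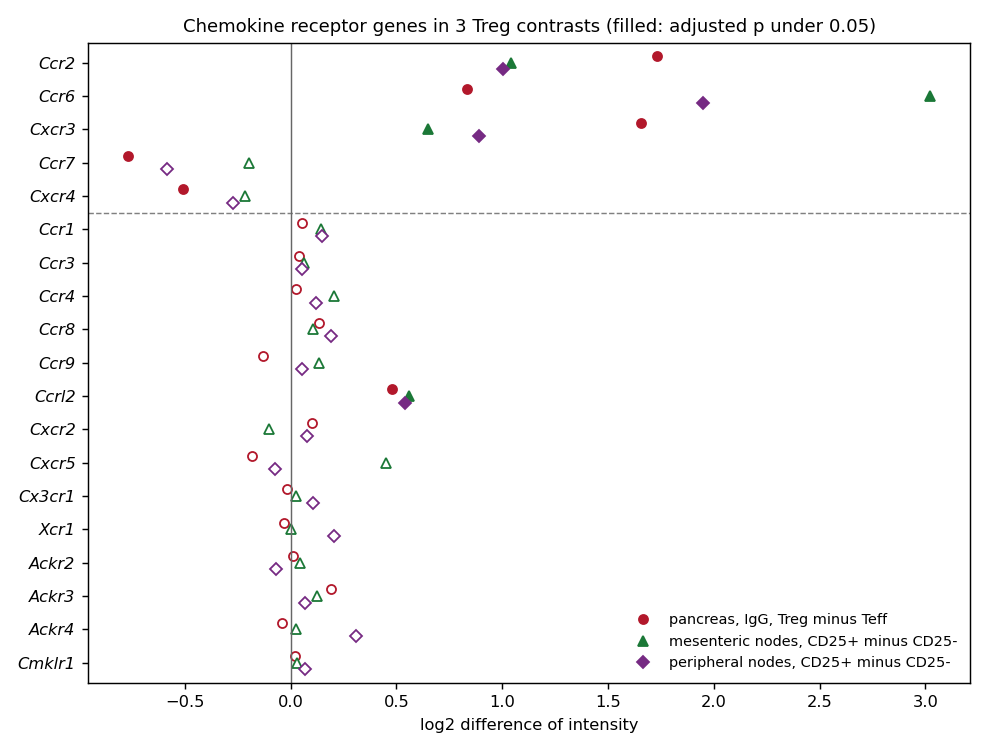
The log2 differences of the 5 receptors (above the dashed line) and of 14 other chemokine receptor genes are plotted for 3 Treg contrasts; filled points passed an adjusted p of 0.05. Below the line the filled points are the 3 of Ccrl2, between 0.48 and 0.56.

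Of 12 listed ligands of the 5 receptors, 8 were measured, and 0 passed in any of the 3 contrasts (1, 1 and 0 at an unadjusted p under 0.05 in pancreas, mesenteric and peripheral contrasts). Their median differences were 0.06, 0.05 and 0.11, against 0.03, 0.04 and 0.05 over all probe sets, of which 6.69%, 12.2% and 7.69% passed. The 8 were Ccl2, Ccl7, Ccl8, Ccl12, Cxcl9, Cxcl10, Cxcl12 and Mif, so CCL20 and the CCR7 ligands were not analysed here.

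Downstream of the receptors, 20 of 28 listed genes of G protein signalling and desensitization were measured. Gnai3, an inhibitory G protein alpha subunit, fell in all 3 contrasts, by 0.73 in the pancreas, 1.00 in mesenteric nodes and 1.38 in peripheral nodes (limma adjusted p = 0.0246, 0.00667 and 0.0026). Gnb1, a G protein beta subunit, fell in mesenteric (-0.53) and peripheral CD25+ cells (-0.75). Rgs2, which speeds the shut-off of G protein signals, fell in the pancreas (-0.81) and the mesenteric nodes (-0.51), and Rgs16, of the same family, fell in the peripheral nodes (-0.47). Rac2, a GTPase of the leukocyte cytoskeleton, rose in mesenteric CD25+ cells (0.77). The counts were 0 up and 2 down of 20 in the pancreas, 1 up and 3 down in mesenteric nodes and 0 up and 3 down in peripheral nodes. Over all probe sets, 6.69%, 12.2% and 7.69% passed in these contrasts. Median differences of the list were 0.01, 0.08 and 0.05, against 0.03, 0.04 and 0.05 over all probe sets.

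Among 14 measured partners in homing and egress, Itgae, the alpha chain of the integrin CD103, rose by 3.28 in pancreatic Treg (7.28 in Treg and 4.00 in Teff, limma adjusted p = 4.6e-06) and by 1.53 in peripheral CD25+ cells (limma adjusted p = 0.0265). Itgb1, an integrin beta chain, rose in pancreatic Treg (0.50) and mesenteric CD25+ cells (0.90), Fut7, which builds selectin ligands, rose in pancreatic Treg (0.59), and Selplg, which encodes such a ligand, rose in peripheral CD25+ cells (0.88). S1pr1, the egress receptor, fell in mesenteric CD25+ cells (-0.51). Klf3, a transcription factor, fell in pancreatic Treg (-0.90) and rose in mesenteric CD25+ cells (2.14). The Itgae contrast was larger in the pancreas than in mesenteric nodes by 2.36 (limma adjusted p = 0.00834) and that of Klf3 was smaller by 3.03 (difference -3.03, limma adjusted p = 0.00951). In counts, 3 rose and 1 fell in the pancreas, 2 rose and 1 fell in mesenteric nodes and 2 rose in peripheral nodes, with median differences of 0.19, 0.21 and 0.20. Over all probe sets, 6.69%, 12.2% and 7.69% passed, and the medians were 0.03, 0.04 and 0.05.

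Of 16 transcription factors listed for their links to these receptors, 11 were measured. Ahr, the aryl hydrocarbon receptor, and Gata3 rose in all 3 contrasts, Ahr by 2.58, 1.78 and 1.12 and Gata3 by 0.71, 0.48 and 0.62 in pancreas, mesenteric and peripheral nodes. Prdm1, which encodes Blimp-1 of effector cells, rose in pancreatic Treg (1.85), and its contrast was larger there than in mesenteric (1.59, limma adjusted p = 0.000786) and peripheral nodes (1.27, limma adjusted p = 0.0107). Eomes, a T-box factor, fell in pancreatic Treg (-1.18) and peripheral CD25+ cells (-1.25), and Satb1 fell in pancreatic Treg (-1.39) and mesenteric CD25+ cells (-1.19). Stat4 fell in both nodes (-0.61 mesenteric and -1.17 peripheral), Lef1 fell in mesenteric (-0.36) and Irf4 in peripheral CD25+ cells (-1.46). In all, 3 rose and 2 fell in the pancreas, and 2 rose and 3 fell in each kind of node, with median differences of -0.11, 0.09 and -0.20. The shares of all probe sets that passed were 6.69%, 12.2% and 7.69%, with medians of 0.03, 0.04 and 0.05. The Eomes contrast was lower in the pancreas than in mesenteric nodes (-1.17, limma adjusted p = 0.0175).

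Over the 29 arrays, with each set centred on its mean, the 3 genes most like each receptor were found by Pearson's r, as a description over arrays that share sorts, sets and runs. Ccr6 was most like Tmem176a (0.957), Tmem176b (0.953) and Trgv1 (0.936), a variable segment of the T cell receptor gamma chain. Trgv1 averaged 10.01 ± 0.10 in mesenteric CD25+ and 5.56 ± 0.23 in mesenteric CD25- cells, 9.33 ± 0.23 in peripheral CD25+ and 5.33 ± 0.20 in peripheral CD25- cells, and 8.01 ± 0.39 in pancreatic IgG Treg and 5.90 ± 0.18 in IgG Teff. Like Ccr6, its contrast was smaller in the pancreas than in mesenteric nodes (difference -2.22, limma adjusted p = 1.91e-06). The gamma chain is part of the receptor of gamma-delta T cells, but Trgv1 RNA in a pool does not by itself show that such cells were present. A part of gamma-delta T cells in the Ccr6 levels was not tested.

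Cxcr3 was most like Ccnb2 (0.923), a mitotic cyclin, AW112010 (0.913) and Itgae (0.901). Ccr2 was most like Gzmb (0.935), which encodes granzyme B, S100a6 (0.92) and S100a10 (0.917). Gzmb was 3.67 higher in pancreatic IgG Treg, 2.51 in mesenteric and 2.80 in peripheral CD25+ cells. Ccr7 was most like Ddx18 (0.892), an RNA helicase, Ttc27 (0.87) and Senp3 (0.811), and Cxcr4 most like Bphl (0.795), Aktip (0.772) and Slc25a36 (0.762). Among the receptors themselves, Ccr2 and Cxcr3 varied together (0.811), Ccr2 and Ccr6 less so (0.677), Cxcr3 and Ccr6 less again (0.432), and Ccr7 and Cxcr4 ran against Ccr2 (-0.625 and -0.704).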

How the data were processed

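RNA of sorted CD4+ T cells was measured on 30 MG-U74Av2 arrays. The deposited values are linear probe set intensities; RMA, with no version, made them for the node arrays and pancreas set 2, per the submitters' processing notes, and for pancreas set 1 no source used here names a method. Of 12488 probe sets, 66 controls were left out of the tests; 10833 had 1 gene symbol, 396 several and 1193 none. Control values of the node arrays correlated with those of pancreas set 1 at r = 0.254 as stored and 0.952 once read in alphabetical order of their names, which was used for the actin ratio alone.

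Log2 intensities were fitted with limma 3.58.1 (lmFit and eBayes, R 4.3.3) within each set. The 15 pancreatic arrays, and the 22 arrays of pancreas set 1 and the nodes, were quantile-normalized together for comparisons across sets. P-values were adjusted by Benjamini-Hochberg over 12422 probe sets (threshold 0.05) and intervals are 95%. Arrays have no read depth; the number of arrays limits the precision. The scripts were tested on simulated data.

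Groups and replicate numbers followed the titles. Same-numbered anti-ICOS Treg and Teff arrays correlated in their deviations at r = 0.589, 0.283 and 0.237. Same-numbered anti-ICOS Treg and IgG Treg arrays did so at 0.541 and 0.621, so this check cannot show that the numbers pair arrays. No label states a pairing, and the main fits used none. Runs are array numbers from the labels, split at gaps over 10. Alternatives were normalization, an offset of 16, a filter on dim probe sets, trend and robust options, run and replicate blocks, the actin ratio, and leaving out each array. Every probe set of the 5 genes is given; list genes are named where they passed in at least 1 of the 3 tissue contrasts (at most 6 per list and contrast), and the 3 genes of highest r are named per receptor. The 5 genes and the lists were chosen with earlier results of these data known.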

Additional observations from a re-analysis of the deposited data

Results flagged for a closer look

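Ccr6 in mesenteric CD25+ replicate 4 was 10.56, far from the other 4 arrays of its group: its gap to the nearest was 0.804 of the group's range, against a limit of 0.71. The check was made only in groups of at least 4 arrays. It therefore covered the 5 receptors in mesenteric CD25+ cells and in IgG Teff of set 1, which makes 10 checks. No other value stood out, and chance marks about 1 in 20 such checks. Smaller groups, anti-ICOS Treg among them, were not checked. Without replicate 4 the mesenteric Ccr6 contrast still passed.

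Of 20 differences between Treg contrasts tested for the 5 receptors by limma, 2 passed, both for pancreas minus mesenteric nodes. The Ccr6 contrast differed by -2.14 and the Cxcr3 contrast by 1.14. Tissue, sort gate, treatment, age, processing and set of records cannot be told apart in either.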

How the results depend on the processing

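Outside the leave-out fits, 404 single-receptor values kept direction and side of the threshold, 12 lost a call, 5 gained one and 9 changed sign. With the actin ratio as a covariate, 2 receptors passed in pancreatic IgG Treg (86 probe sets in all, against 831), 1 in peripheral nodes (267, against 955) and 1 (Ccr6) in the pancreas minus mesenteric contrast (41, against 166), and Ccr7 in anti-ICOS minus IgG Teff was -0.018. With an offset of 16, 1 receptor passed in pancreatic Teff minus node CD25- cells (25.7% of all probe sets), Cxcr4 in IgG Treg was -0.35 (adjusted p = 0.0622) and Cxcr3 in mesenteric nodes no longer passed (0.501, adjusted p = 0.103); after quantile normalization it did not pass either (0.606, adjusted p = 0.053). With array runs as a block, 1 receptor passed in mesenteric minus peripheral CD25+ and 1 in CD25- cells (0.0886% and 0.499% of all probe sets), and the Ccr2 contrast between nodes was -0.055. Without joint normalization the median of all probe sets moved to -0.264 in anti-ICOS minus IgG Teff, where 1 receptor passed (Cxcr4, -0.511) beside 35.3% of all probe sets and Ccr7 was -0.179, and to 0.32 in pancreatic Teff minus node CD25- cells, where 4 passed beside 70.3% of all probe sets and Ccr6 was 0.21; in pancreatic Treg minus node CD25+ cells (median 0.319), Ccr7 was 0.209 and Cxcr4 0.161. Quantile normalization of the node set gave -0.003 for Cxcr4 in mesenteric minus peripheral CD25+ cells. Where no cause is named by construction, the cause was not tested.

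Same-numbered CD25+ and CD25- node arrays correlated at r = 0.026 to 0.323 in mesenteric and 0.015 to 0.23 in peripheral nodes. In 2 of 3 mesenteric and 1 of 3 peripheral cases, the CD25+ array correlated best with the CD25- array of its own number. With the replicate block, 2 receptors passed in mesenteric nodes, where Cxcr3 was 0.545 (adjusted p = 0.17; 832 probe sets in all, against 1514), the Ccr2 contrast between nodes was -0.17, and Cxcr3 in anti-ICOS minus IgG Treg was 0.18. The block changed no other receptor call.

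Leaving out 1 array gave 0 to 1 receptors past the threshold in mesenteric minus peripheral CD25+ cells, 0 to 1 in CD25- cells, 0 to 1 in the pancreas minus peripheral contrast and 1 to 2 in pancreatic Teff minus node CD25- cells. With all arrays, 0.0725%, 0.451%, 0.419% and 27% of all probe sets passed in these comparisons. The shares in the leave-out fits are not given here. Values that changed sign in such fits ranged as follows. In anti-ICOS minus IgG, Cxcr3 in Treg ran between -0.582 and 0.413 and Ccr7 in Teff between -0.102 and 0.089; Cxcr4 in anti-ICOS Treg minus Teff ran between -0.383 and 0.084. In mesenteric minus peripheral CD25+ cells, Ccr2 ran between -0.264 and 0.045 and Cxcr4 between -0.141 and 0.116; in CD25- cells, Ccr7 between -0.269 and 0.192 and Cxcr4 between -0.262 and 0.107. In the contrast between nodes, Ccr2 ran between -0.103 and 0.206, Cxcr3 between -0.487 and 0.054 and Cxcr4 between -0.1 and 0.269. Ccr7 ran between -0.403 and 0.124 in the pancreas minus peripheral contrast and between -0.248 and 0.016 in pancreatic Treg minus node CD25+ cells, and Cxcr4 between -0.035 and 0.157 in pancreatic Teff minus node CD25- cells. The mean over several probe sets was not run, since each receptor has 1.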
